A study of Mus musculus with 32 samples.

Results

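The genes described here are 35 liver genes of the urea cycle and of amino acid metabolism, taken by name from a list; 34 of the 35 were measured, among 19204 genes tested. No array probe carried the gene name Amt, so Amt was not analysed here. The list was made by function, with earlier results of these data known. Expression was measured in liver RNA of 32 mice on Agilent 1-colour arrays, 1 array per mouse, after systemic treatment with saline or with lipopolysaccharide (LPS), an outer-membrane component of Gram-negative bacteria. E2F1 is a transcription factor of the cell cycle, and the study's title asks for its role in the innate response to LPS.

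Wild-type mice (E2F1+/+, strain label B6x126 F2) gave 6 livers after saline, 4 at 6 h after LPS and 6 at 20 h. Mice labelled E2F1-/- (strain label B6;129 with E2F1-/- joined to it, called knockouts below) gave 6, 4 and 6. All saline livers carry the label 20 h, so the 6 h groups have no saline group of their own time. The strain labels differ between genotypes, although the sample titles of the wild-type mice begin with B6129. Whether the backgrounds differ is thus unsettled, and genotype and strain background cannot be told apart. Age, sex, LPS dose and the deleted part of E2f1 are not given in the sources used here. Nothing states more than that each array is 1 mouse.

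Liver disposes of nitrogen through the urea cycle. Carbamoyl phosphate, made in mitochondria by Cps1, is joined to ornithine, and the chain passes through citrulline, argininosuccinate and arginine before arginase releases urea and returns ornithine. The same hepatocytes take amino acids apart, with transaminases moving the amino group and dedicated pathways breaking down tyrosine, tryptophan, histidine, methionine, serine and glycine. The urea cycle and most amino acid breakdown are strongest in periportal hepatocytes, while glutamine synthetase (Glul) marks those around the central vein.

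Levels are log2 signals relative to the 75th percentile of the same array, so a step of 1 is a doubling, and they are compared only within a gene. That percentile ranged from 282 to 1138 signal units and 20203 to 28891 spots per array were well above background; the number of arrays, 4 to 6 a group, limits the precision. The tissue label reads liver, whereas the extraction protocol names lung. The hepatocyte gene Alb lay between 9.19 and 11.2, and of the lung epithelial genes Sftpb, Sftpc and Nkx2-1 were well above background on 0 of 32 arrays. Other genes of that list were detected, Sftpd on 29 arrays, Sftpa1 on 27 and Scgb1a1 on 15, with levels of at most 0.69, 1.03 and -2.16. Sftpa1 and Sftpd were called higher in wild type at 6 h and at 20 h. Both E2f1 probes were dim and were not lower in the knockouts: their medians were -3.36 and -2.71 in 16 knockout arrays, against -4.91 and -4.01 in 16 wild-type arrays. Whether these probes lie in the deleted part is not known, so they do not check the genotype labels.

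3 knockout arrays stood apart. Over 18873 genes, knockout saline replicate 1 correlated best with the mean of the knockout 6 h LPS group (r = 0.976, against 0.909 with its own group) and knockout 6 h replicate 1 with the knockout saline mean (r = 0.984, against 0.927). Both arrays share a slide. Knockout 20 h replicate 4 also correlated best with knockout saline (r = 0.970, against 0.942). The mean level of 7 neutrophil markers was 2.07 in knockout saline replicate 1, where the other 5 arrays of that group lay at -3.96 to -3.34, and -2.26 in knockout 6 h replicate 1, where the other 3 lay at 1.78 to 2.64. In knockout 20 h replicate 4 it was 1.39, within its group. Knockout results are therefore given with and without these 3 arrays; the arrays were singled out after their values were seen.

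**Figure D1:**
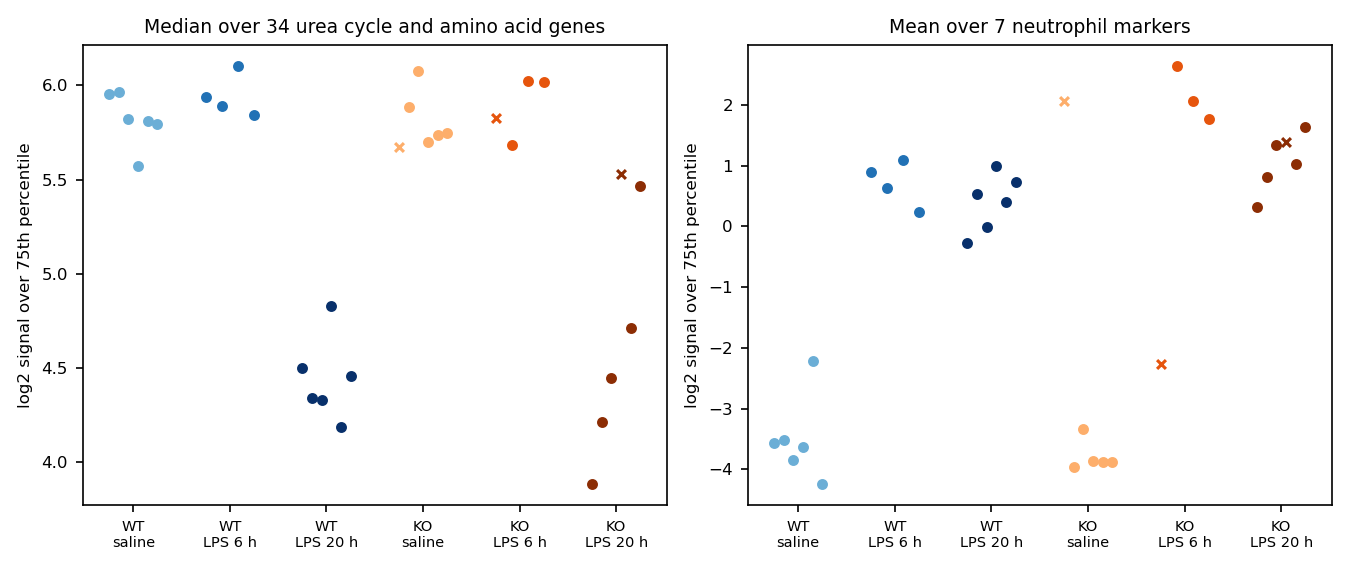
Median log2 level over the 34 measured genes (left) and mean log2 level over 7 neutrophil markers (right), 1 point per mouse in each of the 6 groups, crosses marking the 3 knockout arrays that stood apart. The member median falls at 20 h but not at 6 h, and replicates 4 (5.53) and 6 (5.46) of the knockout 20 h group lie near the saline arrays.

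Array probes of 4 genes are shown because their mm9 design positions span more genome than their own 60 bases, as probes across a splice junction do, and because they include genes that fell (Otc, Ass1, Hpd) and one that was not called (Asl). No base is singled out by capitals. The Otc probe shown lies at chrX:9853843-9877490, the Ass1 probe at chr2:31374279-31375918, the Asl probe at chr5:130487964-130488549 and the Hpd probe at chr5:123622237-123624360. The Otc levels below come from another Otc probe, whereas the Ass1, Asl and Hpd probes shown are those used. The exon numbers are not given here because no mm9 annotation was used.
Otc: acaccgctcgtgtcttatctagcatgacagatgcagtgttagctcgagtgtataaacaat
Ass1: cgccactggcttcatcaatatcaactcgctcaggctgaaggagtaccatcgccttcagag
Asl: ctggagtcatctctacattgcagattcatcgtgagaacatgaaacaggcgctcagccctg
Hpd: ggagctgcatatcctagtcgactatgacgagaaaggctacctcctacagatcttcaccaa

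The first question was what LPS did to these genes in wild-type liver. At 20 h most of them were lower: 26 of 34 passed the test at an adjusted p of 0.05 (limma, Benjamini-Hochberg over all genes), 3 higher and 23 lower. Over all 19204 genes, 36.6% were called at 20 h, 16.5% higher and 20.1% lower. The median change of the 34 genes was -1.56 on the log2 scale, against -0.02 over all genes. In 19 of the 34 every LPS array lay below every saline array, which held for 12.9% of all genes, and 1 gene, Gpt2, lay above throughout, against 9.33%. At 6 h 6 of 34 were called, 2 higher and 4 lower, against 28.5% of all genes (12.5% higher and 16% lower), and the median was -0.06. The 6 h arrays all lay below saline in 6 genes and above in 2, against 15.9% and 11.7% of all genes. Between 6 and 20 h, 25 were called, 3 higher and 22 lower, where 34.3% of all genes were called, 17.1% higher and 17.2% lower. Leaving out the 3 knockout arrays, which enter these fits only through the shared spread, gave 8 calls at 6 h (34.5% of all genes) and 27 at 20 h (42.9%).

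In bulk tissue fewer cells of a type and less RNA per cell cannot be told apart. Of 7 hepatocyte markers tested, 4 fell at 20 h in wild type, led by Ttr at -3.11, and none was called at 6 h. The summed signal of the 7 was 2532 to 4693 times the array percentile value in saline arrays and 1879 to 3286 in 20 h arrays. Of 7 neutrophil markers, 6 rose at each time, from a summed 2.17 to 9.37 in saline to 52.6 to 130 at 20 h. Of 7 Kupffer cell markers, 6 fell and Marco rose at 20 h. What part these shifts play in the results below was not tested.

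**Figure D2:**
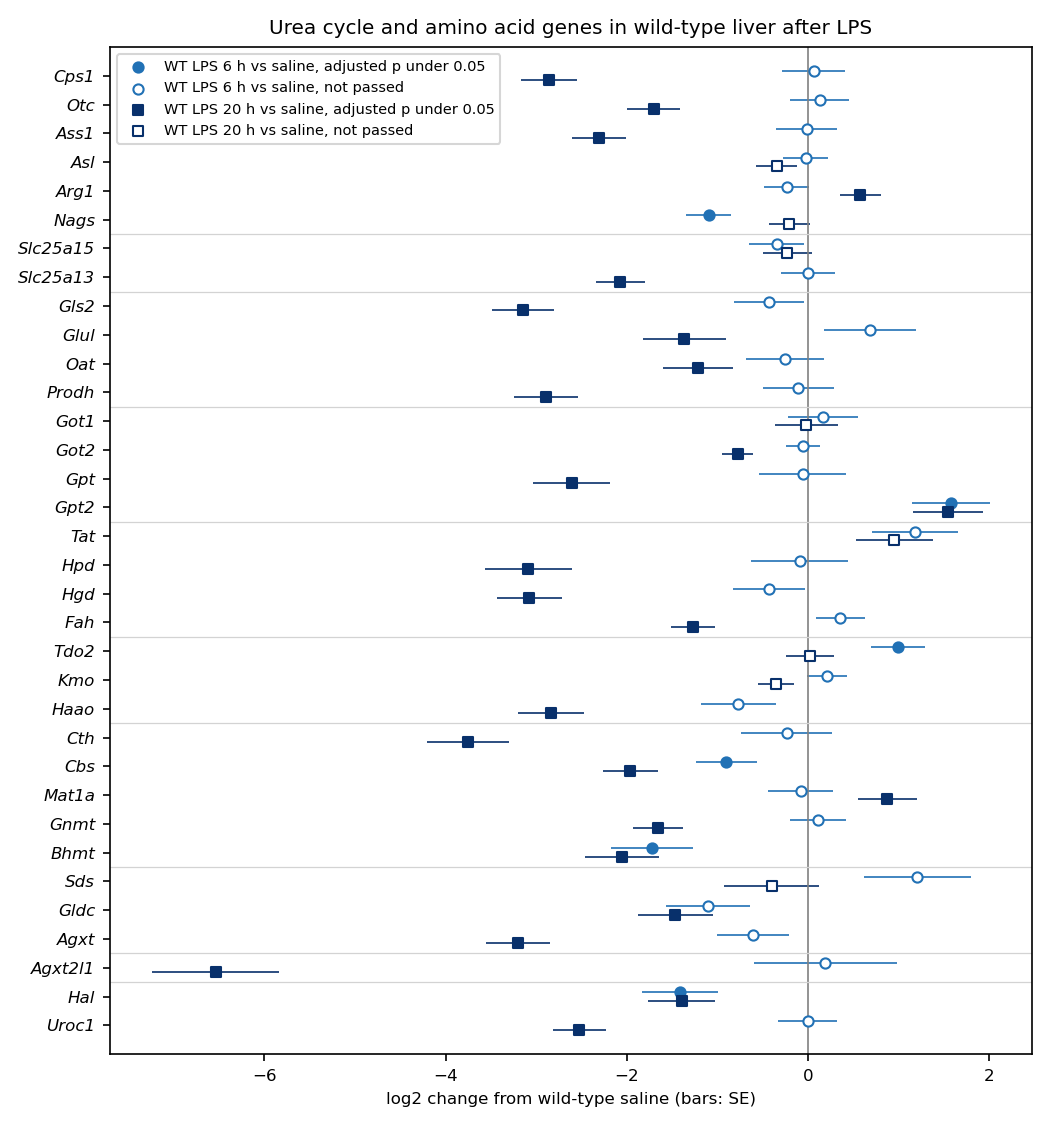
Log2 change from wild-type saline for the 34 measured genes at 6 h (circles) and 20 h (squares), bars showing the moderated standard error, filled symbols an adjusted p under 0.05, grey lines separating functional groups. At 20 h 23 genes are called lower, Agxt2l1 farthest at -6.54, while at 6 h most lie near 0.

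Among the urea cycle enzymes the early steps fell and the last rose. Cps1, the rate-limiting enzyme of the cycle, lay at 7.05 to 7.89 in 6 wild-type saline livers (median 7.46), at 7.68, 7.62, 7.72 and 7.02 at 6 h, and at 3.94 to 5.40 at 20 h (median 4.54). The 20 h arrays did not overlap with the saline arrays, while 3 of the 4 arrays at 6 h lay within the saline range and the other just below it. The change at 20 h was -2.86 ± 0.31 (SE; 7.25-fold lower, limma adjusted p = 1.17e-07). Ass1, which condenses citrulline with aspartate, was tight in saline (8.03 to 8.37, median 8.14) and at 4.99 to 6.69 at 20 h (median 5.86), a fall of 4.94-fold (-2.30 ± 0.30, adjusted p = 1.16e-06). Otc, which forms citrulline from ornithine, went from 5.48 to 6.33 (median 6.04) in saline to 3.49 to 5.34 (median 4.21) at 20 h, a change of -1.70 ± 0.29 (adjusted p = 4.08e-05). The junction-spanning Otc probe printed above gave -1.95 ± 0.33 and another, dim probe -5.32 ± 0.61, so the size of the Otc fall depended on the probe.

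The later enzymes did not share this fall. Asl, which splits argininosuccinate into arginine and fumarate, lay at 5.89 to 6.70 in saline (median 6.16) and 5.35 to 6.23 at 20 h (median 5.88), overlapping, with a change of -0.35 ± 0.22 (adjusted p = 0.234). Arg1, the arginase that releases urea, lay at 6.68 to 7.29 in saline (median 7.01), at 6.87, 6.92, 6.56 and 6.70 at 6 h, and at 7.11 to 7.92 at 20 h (median 7.56). It rose by 1.49-fold at 20 h (0.58 ± 0.23, adjusted p = 0.0442), with overlapping groups. That call was lost in 5 of 13 alternative settings, with an adjusted p of up to 0.0944, and in 8 of 32 fits that left out 1 array, with an adjusted p of up to 0.102: wild-type saline replicate 1, 2 or 5, or wild-type 20 h replicate 1, 2, 3, 5 or 6. From 6 h to 20 h the Arg1 groups did not overlap, and the rise was 0.81 ± 0.25 (adjusted p = 0.0126).

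Nags, which makes the N-acetylglutamate that activates Cps1, was the only urea cycle enzyme called at 6 h. Its wild-type levels were 4.94 to 5.88 in saline (median 5.57), 4.65, 3.96, 4.40 and 4.45 at 6 h, and 4.75 to 5.77 at 20 h (median 5.27). All 4 arrays at 6 h lay below all saline arrays, whereas the 20 h arrays overlapped with saline. The fall at 6 h was 2.14-fold (-1.09 ± 0.25, adjusted p = 0.00133), and the rise from 6 to 20 h was 0.89 ± 0.25 (adjusted p = 0.00621). A second Nags probe gave -1.34 ± 0.24 at 6 h. Of the 2 mitochondrial carriers, Slc25a13, which exports aspartate, went from 4.37 to 5.12 in saline to 2.12 to 3.69 at 20 h (-2.07 ± 0.27, adjusted p = 1.12e-06), while Slc25a15, which exchanges ornithine and citrulline, changed by -0.23 ± 0.27 and was not called.

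**Figure D3:**
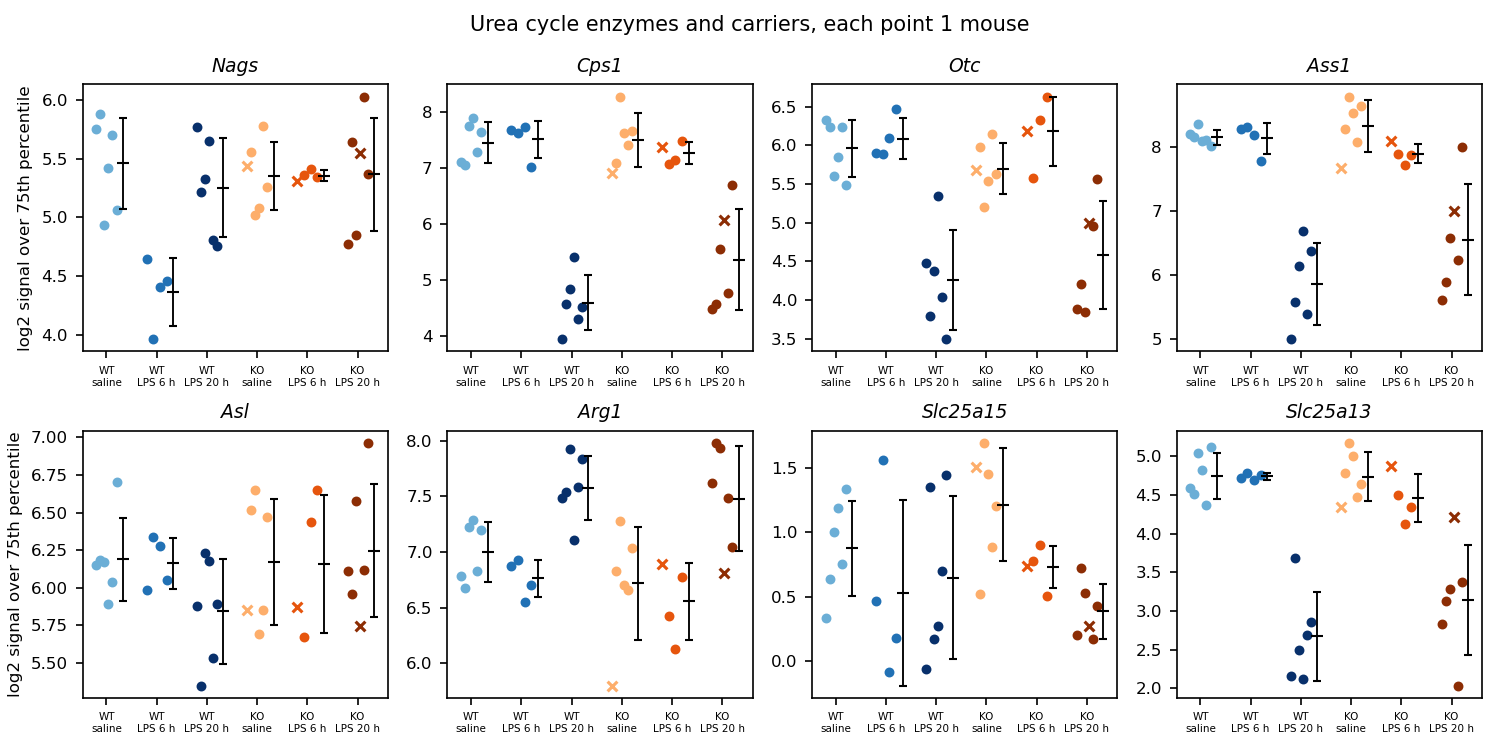
Log2 level of 6 urea cycle enzymes and 2 mitochondrial carriers in each mouse by group; black marks give the mean and SD, crosses the 3 knockout arrays that stood apart, and the y axes differ between panels. Cps1, Otc, Ass1 and Slc25a13 are low at 20 h, Arg1 is high, and Nags is low only in the wild-type 6 h arrays.

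All 4 genes of glutamine, ornithine and proline fell at 20 h in wild type. Gls2, the liver glutaminase that releases ammonia from glutamine, lay at 6.46 to 7.06 in saline (median 6.83) and at 2.95 to 4.51 at 20 h (median 3.47), a fall of 8.85-fold (-3.15 ± 0.35, adjusted p = 1.47e-07). Prodh, the first enzyme of proline breakdown, fell by 2.90 ± 0.35 (adjusted p = 5.33e-07), also without overlap. Glul, which makes glutamine from ammonia, was spread widely at 20 h (3.09 to 6.59, against 5.47 to 6.79 in saline) and fell by 1.37 ± 0.46 (adjusted p = 0.0191), a call lost without wild-type 20 h replicate 2 or 6, with an adjusted p of up to 0.0625. Another Glul probe, well above background on all 32 arrays, gave -0.70 ± 0.32 and was not called (adjusted p = 0.083). Oat, ornithine aminotransferase, fell by 1.21 ± 0.38 (adjusted p = 0.014), but not under quantile normalisation or in the deposited table, where the adjusted p reached 0.0809, nor without wild-type 20 h replicate 1 (0.0524).

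The alanine transaminases moved apart. Gpt, the mainly cytosolic enzyme, was at 5.57 to 6.21 in saline (median 6.10) and at 2.71 to 4.62 at 20 h (median 3.28), 6.10-fold lower (-2.61 ± 0.43, adjusted p = 2.52e-05). Gpt2, the mitochondrial enzyme, was at 3.83 to 5.13 in saline (median 4.33), at 5.78, 6.67, 5.89 and 5.87 at 6 h and at 5.30 to 6.57 at 20 h (median 6.20). It was the only gene of the 34 above all saline arrays at 20 h, and rose 2.99-fold at 6 h (1.58 ± 0.43, adjusted p = 0.00606). At 20 h it was 2.91-fold above saline (1.54 ± 0.38, adjusted p = 0.00227). The 6 h call was lost with slide as a block (adjusted p = 0.0593). Of the aspartate transaminases, mitochondrial Got2 fell by 0.78 ± 0.17 at 20 h (adjusted p = 0.000646, up to 0.0725 under quantile normalisation and in the deposited table) and cytosolic Got1 changed by -0.02 ± 0.35.

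Tyrosine breakdown fell in 3 of its 4 steps measured. Hpd, which makes homogentisate, went from 6.76 to 7.47 in saline (median 6.99) to 2.53 to 4.80 at 20 h (median 4.23), 8.49-fold lower (-3.09 ± 0.48, adjusted p = 1.33e-05). Hgd, which opens the homogentisate ring, was tight in saline (5.42 to 5.72) and at 1.92 to 3.03 at 20 h, 8.43-fold lower (-3.08 ± 0.36, adjusted p = 2.67e-07). Fah, the last enzyme of the path, fell by 1.27 ± 0.24. Tat, the glucocorticoid-inducible first step, did not fall: it lay at 6.67 to 7.89 in saline, at 8.07, 8.70, 8.51 and 8.14 at 6 h and at 7.64 to 8.62 at 20 h. Its 6 h arrays lay above all saline arrays, yet its change of 1.18 ± 0.47 did not pass (adjusted p = 0.0605), nor did 0.95 ± 0.42 at 20 h (adjusted p = 0.0773). Without the 3 knockout arrays the standard errors were 0.26 and 0.23, and both Tat changes passed (limma adjusted p = 0.000662 and 0.00152). The wild-type values are the same in that fit. The arrays left out held the highest Tat level of knockout saline (8.88) and the lowest of knockout 6 h (6.60) and 20 h (6.24). The smaller standard errors follow from leaving them out.

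Tryptophan and histidine enzymes differed by time. Tdo2, the first step of hepatic tryptophan breakdown, was at 4.64 to 5.85 in saline, at 6.39, 6.26, 6.31 and 5.66 at 6 h and at 4.74 to 5.50 at 20 h; it rose by 0.99 ± 0.29 at 6 h (adjusted p = 0.0114) and changed by 0.02 ± 0.26 at 20 h. The 6 h call was lost under quantile normalisation, with or without normexp, and in the deposited table, with an adjusted p of up to 0.154. Haao, later in the same path, fell by 2.84 ± 0.37 at 20 h (adjusted p = 1.09e-06), and Kmo changed by -0.36 ± 0.20 (adjusted p = 0.164). Hal, histidine ammonia-lyase, was already low at 6 h: 4.47, 4.60, 4.63 and 5.03 against 5.55 to 6.71 in saline, a change of -1.42 ± 0.42 (adjusted p = 0.0105, 0.108 with slide as a block) that stood at -1.40 ± 0.37 at 20 h (adjusted p = 0.004). Uroc1, the next histidine enzyme, changed by -0.00 ± 0.33 at 6 h and fell by 2.52 ± 0.29 at 20 h (adjusted p = 2.55e-07).

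Of 5 methionine and transsulfuration genes, 4 fell and 1 rose at 20 h. Cth, which releases cysteine from cystathionine, went from 5.16 to 5.87 in saline (median 5.45) to 1.02 to 3.08 at 20 h (median 1.50), 13.5-fold lower (-3.75 ± 0.45, adjusted p = 4.15e-07). Cbs, the step before it, was lower at 6 h (-0.90 ± 0.34, adjusted p = 0.0433). At 20 h it was also lower, with a change of -1.96 ± 0.30 (adjusted p = 1.09e-05). Its 6 h call was lost with no filter on dim probes and with slide or scan date as a block (adjusted p up to 0.122), and in 8 of 32 fits without 1 array, up to 0.147: wild-type saline replicate 1, 2, 4, 5 or 6, or wild-type 6 h replicate 1, 2 or 3. Bhmt, which remethylates homocysteine with betaine, had the largest fall at 6 h of the 34 with the brightest probe of each gene: 6.37, 5.45, 6.49 and 6.00 against 7.42 to 8.36 in saline, 3.31-fold lower (-1.73 ± 0.45, adjusted p = 0.00471), and -2.06 ± 0.41 at 20 h. Gnmt, the glycine methyltransferase, fell by 1.66 ± 0.27 at 20 h. Mat1a, which makes S-adenosylmethionine in liver, rose by 0.88 ± 0.32 (adjusted p = 0.0343) with overlapping groups, a call lost with no filter on dim probes and with slide as a block (adjusted p up to 0.127), and up to 0.0767 without wild-type saline replicate 1, 2 or 5 or wild-type 20 h replicate 1, 2 or 6.

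Serine and glycine genes fell in 2 of 3. Agxt, the peroxisomal enzyme that turns glyoxylate into glycine, went from 6.78 to 8.03 in saline (median 7.69) to 3.91 to 4.69 at 20 h (median 4.45), 9.21-fold lower (-3.20 ± 0.36, adjusted p = 1.63e-07). Gldc of the glycine cleavage system lay at 3.25, 3.34, 3.35 and 3.09 at 6 h, all below the saline arrays (3.74 to 4.86). Its change there, -1.10 ± 0.47, was not called (limma adjusted p = 0.0761). The change passed without the 3 knockout arrays (0.0400), which enter only through the shared spread, and in 6 of 13 alternative settings. At 20 h Gldc fell by 1.46 ± 0.42 (adjusted p = 0.0066). Sds, serine dehydratase, changed by 1.20 ± 0.59 at 6 h and -0.40 ± 0.53 at 20 h, neither called. The largest change of the 34 was in Agxt2l1 (now Etnppl), a phosphoethanolamine phospho-lyase. It lay at 4.16 to 5.22 in saline (median 4.94), at 5.15, 4.98, 4.78 and 5.16 at 6 h and at -4.16 to 0.78 at 20 h (median -1.63), where 5 of 6 arrays were well above background. The difference was -6.54 ± 0.70 (adjusted p = 1.17e-07). A second, dim Agxt2l1 probe, well above background on 13 of 32 arrays, was lower at 20 h (-6.30 ± 0.90) and already at 6 h, by -5.64 ± 1.00 in wild type (adjusted p = 0.000128) and -3.74 ± 1.00 in knockouts (adjusted p = 0.0469), so the 6 h values of the probes disagree.

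**Figure D4:**
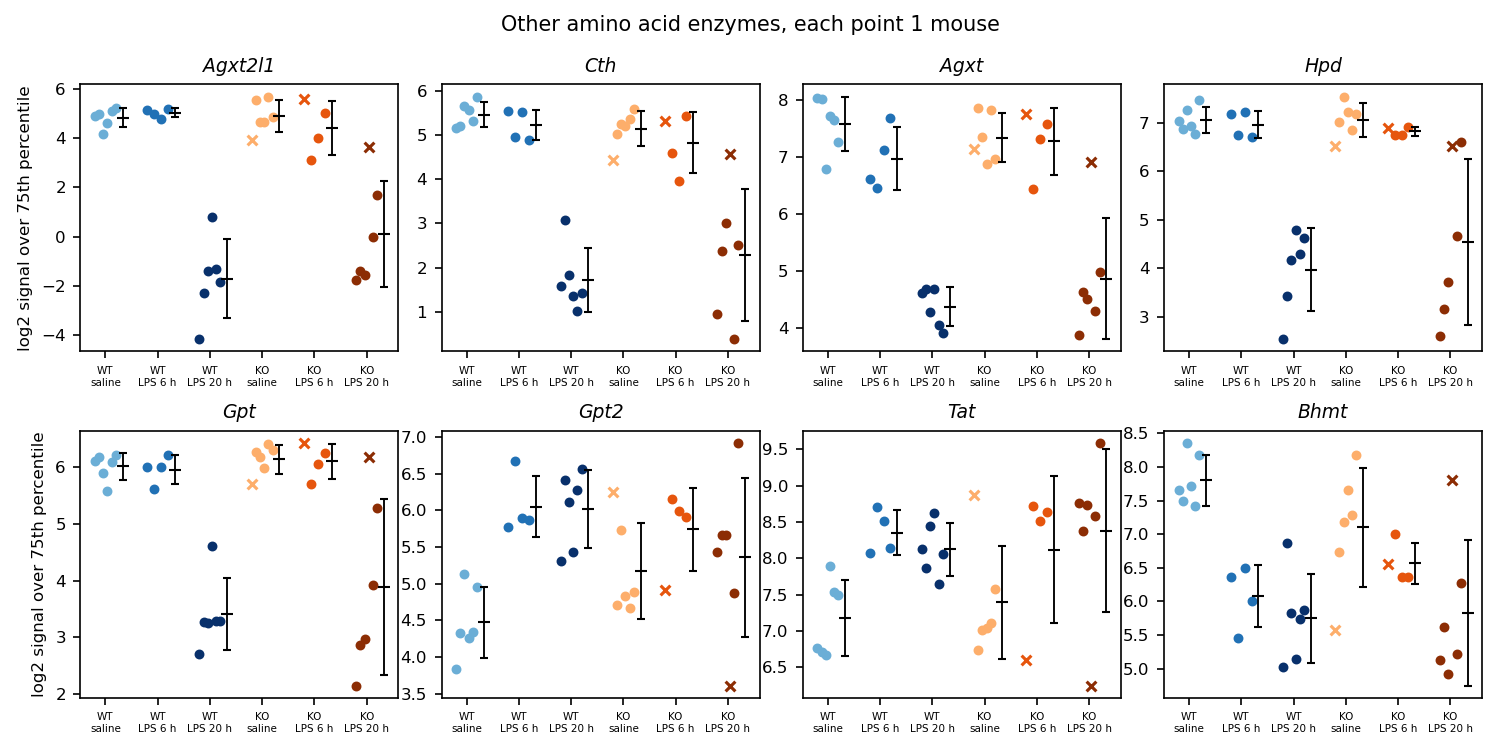
Log2 level of 8 other amino acid genes in each mouse by group, drawn as for the urea cycle genes with y axes that differ between panels. Agxt2l1 (brightest probe), Cth, Agxt, Hpd and Gpt are called lower in wild type at 20 h and not at 6 h, Bhmt is low in wild type at both times, and Gpt2 is high in wild type at both times.

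The 20 h fall in wild type was present within both scan dates that hold 2 or more arrays of each group, with member medians of -1.54 and -1.61. For 6 h no scan date held 2 arrays of both wild-type groups, so scan date was used only as a block there.

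In the knockouts 24 of the 34 genes were called at 20 h against knockout saline, 2 higher (Arg1 and Mat1a) and 22 lower, where 26.3% of all genes were called, 11.7% higher and 14.6% lower. Without the 3 arrays it was 25, 3 higher and 22 lower, against 41.2%, 19% higher and 22.2% lower. The median change was -1.26, and -1.67 without the 3 arrays. Within the 3 scan dates, each with 2 arrays a group, the median was -1.79, -0.97 and -0.89, with 18, 0 and 0 genes called. The scan date with -1.79 holds none of the 3 arrays that stood apart. Those with -0.97 and -0.89 hold knockout 20 h replicate 4 and knockout saline replicate 1, 1 on each date. The date of knockout saline replicate 1 also holds knockout 20 h replicate 6, which stayed in the fits without the 3 arrays. The median level of replicate 6 over the 34 genes was 5.46, against 5.67 to 6.07 in the knockout saline arrays. The part of these arrays in the medians was not tested. Markers of other cell types moved here too: 6 of 7 neutrophil markers were called higher, 5 of 7 Kupffer cell markers lower and 1 higher, 4 of 5 stellate cell markers lower and 1 higher, and 3 of 7 hepatocyte markers lower. Their part in the result was not tested. Cps1 lay at 6.91 to 8.27 in knockout saline and 4.48 to 6.69 at 20 h without overlap, a change of -2.13 ± 0.31 (adjusted p = 1.69e-05). Cth changed by -2.86 ± 0.45, Hpd by -2.52 ± 0.48 and Agxt by -2.47 ± 0.36. Without the 3 arrays the saline and 20 h means were 5.29 and 1.84 for Cth, 7.17 and 4.14 for Hpd, and 7.37 and 4.46 for Agxt. Agxt2l1 changed by -4.77 ± 0.70, and by -5.67 ± 0.62 without the 3 arrays. With all arrays, every 20 h array lay below every saline array in 6 genes (Cps1, Slc25a13, Gnmt, Oat, Agxt2l1 and Uroc1). This held for 2.33% of all genes. Without the 3 arrays further genes separated too, among them Ass1, Gls2, Gpt, Hpd, Hgd, Cth and Agxt. The share of all genes that did so was not computed. Leaving out arrays can only add separated genes, and these 3 were singled out after their values were seen. This added separation is therefore not a result about these genes. The Agxt level of knockout 20 h replicate 4, 6.91, compares with 3.88 to 4.98 in the other 5. The rise of Arg1 (0.76 ± 0.23, adjusted p = 0.0127) and of Mat1a (0.86 ± 0.32, adjusted p = 0.0487) was lost under quantile normalisation, under normexp with quantile normalisation and in the deposited table, among other settings. The Mat1a call held in 10 of 32 fits that left out 1 array.

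At 6 h in the knockouts the count depended on the 2 arrays that correlated with each other's group. With all arrays 0 of 34 passed (limma; 2 at an unadjusted p under 0.05), where 2.61% of all genes did. Without the 3 arrays 7 passed, against 31.1% of all genes (13.6% higher and 17.5% lower): Gpt2 (1.05 ± 0.37), Tat (1.53 ± 0.29), Tdo2 (0.91 ± 0.32) and Sds (2.41 ± 0.57) were higher, and Cbs (-1.03 ± 0.26), Gldc (-1.38 ± 0.47) and Hal (-1.37 ± 0.29) lower. Tat shows the dependence: it lay at 6.60, 8.72, 8.52 and 8.64 in the 4 knockout 6 h arrays and at 6.73 to 8.88 in saline, where 8.88 is the highest of 6; without the 3 arrays saline ended at 7.57 and 6 h began at 8.52. From 6 to 20 h in the knockouts 18 genes were called, 1 higher and 17 lower, against 15.6% of all genes (7.24% higher and 8.34% lower), and 23 without the 3 arrays, against 26.6%.

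The last question was whether the genotypes differed. No gene of the 34 was called between knockout and wild type on saline, at 6 h or at 20 h (limma; 0, 1 and 5 at an unadjusted p under 0.05), where 0.333%, 1.26% and 0.323% of all genes were called. None was called for a different LPS response at 6 h or at 20 h (1 and 2 at an unadjusted p under 0.05), against 0.125% and 0.0417% of all genes. Without the 3 arrays these 5 counts were again 0, against 0.427%, 1.99%, 0.484%, 0.177% and 0.026% of all genes. On saline the differences ran from -0.70 to 0.70 around a median of -0.01. At 20 h the median difference was 0.41, and 0.18 without the 3 arrays. The within-scan medians at 20 h were -0.06 and 0.59, of opposite sign. The scan date with 0.59 holds knockout 20 h replicate 4.

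The intervals leave room for sizeable differences. Agxt2l1 differed by 1.81 at 20 h, with a 95% interval of 0.37 to 3.25 (adjusted p = 0.464), and by 1.11 without the 3 arrays. Gpt2 was 2.91-fold higher at 20 h in wild type. In knockouts it lay at 4.67 to 6.25 on saline and 3.61 to 6.92 at 20 h, a change of 0.18 ± 0.38. The 6.25 came from knockout saline replicate 1 and the 3.61 from knockout 20 h replicate 4. Without the 3 arrays the knockout means were 4.96 on saline and 5.71 at 20 h. The wild-type and knockout responses differed by -1.36, with an interval of -2.47 to -0.25 (limma adjusted p = 0.65), and by -0.80 without the 3 arrays. A p that misses the threshold here does not show that the genotypes act alike.

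**Figure D5:**
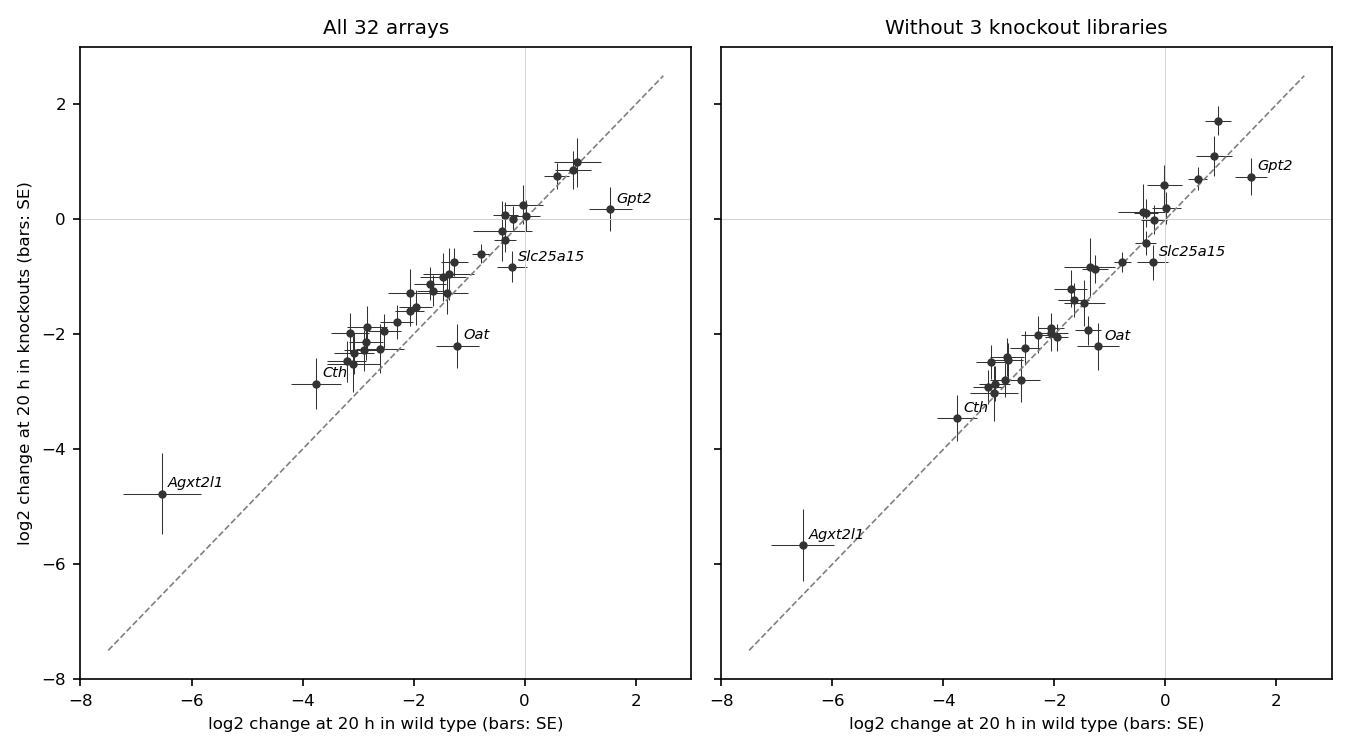
Log2 change at 20 h in knockouts (y) against wild type (x) for the 34 genes, with standard errors, over all 32 arrays (left) and without the 3 knockout arrays that stood apart (right); the dashed line marks equal change. The median difference between the responses is 0.43 with all arrays and 0.22 without the 3.

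Nags came closest to a genotype difference. At 6 h the 4 knockout arrays lay at 5.31, 5.37, 5.41 and 5.34, all above the wild-type arrays (4.65, 3.96, 4.40 and 4.45) and within the knockout saline range of 5.02 to 5.78. Groups without overlap and with knockouts higher were found in 4.22% of all genes. The difference was 0.99 ± 0.27 (interval 0.43 to 1.55, adjusted p = 0.0644), and 1.01 ± 0.30 without the 3 arrays (adjusted p = 0.0804). It passed in 7 of 13 alternative settings, where the adjusted p ran from 0.016 to 0.176. The second Nags probe gave 1.01 ± 0.26 and just passed over all probes (limma adjusted p = 0.0493). Its knockout values were 2.77, 3.81, 3.61 and 3.49, and its wild-type values 2.77, 2.04, 2.49 and 2.34. The lowest knockout value, 2.775 in replicate 1, lay barely above the highest wild-type value, 2.765. The difference in 6 h response was 1.10 ± 0.35 and was not called (adjusted p = 0.263, 0.122 to 0.521 in alternative settings).

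Genes around these paths moved both ways in wild type. The counts at 20 h for these other lists stand against 16.5% of all genes called higher and 20.1% called lower. Of 20 branched-chain amino acid and lysine genes, 16 fell and none rose at 20 h, among them Ivd, isovaleryl-CoA dehydrogenase (-2.08 ± 0.25), and Hibch (-2.02 ± 0.31) and Pcca (-2.01 ± 0.30) of the valine and propionate steps. Of 11 other phenylalanine, tyrosine and histidine genes, 9 fell, among them Amdhd1 of histidine breakdown (-3.39 ± 0.40) and Qdpr (-2.91 ± 0.32), while Hdc, which makes histamine, rose by 3.90 ± 0.70. Of 12 other tryptophan genes, 10 fell, among them Ido2 (-3.97 ± 0.64), Afmid (-3.53 ± 0.52) and Kynu (-3.14 ± 0.41), and both Ido1 (2.43 ± 0.56) and Wars (2.23 ± 0.47) rose. Of 19 other methionine, one-carbon and cysteine genes, 11 fell and 2 rose, with Mthfd1 lowest at -3.20 ± 0.39. Of 17 glutamate, proline and ammonia genes, 10 fell and 3 rose; Car5a, the mitochondrial carbonic anhydrase that supplies bicarbonate to Cps1, fell by 5.59 ± 0.78, and Asns, asparagine synthetase, rose by 2.79 ± 0.53.

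The serine and arginine lists split by direction. Of 16 other serine and glycine genes, 4 rose and 8 fell at 20 h. Psat1 (4.50 ± 0.45) and Phgdh (2.74 ± 0.44), which make serine, and Sdsl (3.88 ± 0.38) rose, while Shmt1 (-3.69 ± 0.49), Hao1 (-2.56 ± 0.32) and Gcsh (-2.18 ± 0.28) fell. Of 19 arginine and polyamine genes, 8 rose and 6 fell, against 16.5% and 20.1% of all genes. Arg2, the second arginase, rose by 4.33 ± 0.80 at 6 h and 2.95 ± 0.71 at 20 h, Nos2, the inducible nitric oxide synthase, by 3.89 ± 0.65 and 2.13 ± 0.58, and the arginine transporter Slc7a1 by 2.46 ± 0.59 at 6 h. Gatm, which starts creatine synthesis from arginine, fell by 1.41 ± 0.47 and 3.35 ± 0.42.

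Zone markers and regulators were read in the same way. All 8 pericentral hepatocyte genes fell at 20 h, including Lgr5 (-5.39 ± 0.90), Axin2 (-2.70 ± 0.84) and Cyp1a2 (-2.45 ± 0.31), and 4 of 6 periportal genes fell, including Cyp2f2 (-3.57 ± 0.40). Of 15 hepatocyte regulators, 6 fell and 4 rose at 20 h, against 20.1% and 16.5% of all genes. The glucagon receptor gene Gcgr fell by 2.87 ± 0.37 and Cebpa by 1.80 ± 0.31, while Cebpd rose by 3.19 ± 0.71 and Atf4, a regulator of amino acid synthesis genes, by 1.36 ± 0.36. At 6 h Cebpd rose by 4.23 ± 0.80 and Cebpb by 2.23 ± 0.59.

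As many of the 34 genes moved together, the 250 bases before each RefSeq start site (GRCm38.p6) were searched on both strands for motifs, of which 4 are given: C/EBP (TTGCNNAA), HNF4 (CAAAGTCCA), the TATA box (TATAAA) and the CCAAT box (CCAAT). A sequence was found for 26 of the 34 genes. Each gene counted once, with a match at any of its start sites, whereas the shares of all promoters count every start site. The C/EBP letters were in 2 of 26 (7.69%), against 9.56% of 32851 promoters, TATAAA in 4 (15.4%) against 12.4%, and CCAAT in 13 (50%) against 33.9%. The HNF4 letters were in 0 of 26, where 0.384% of all promoters held them. At so low a share 0 was the likely count for any 26 promoters, so it does not show that HNF4 sites are absent. These matches are descriptions of letters in this window. The 2 genes with C/EBP letters are printed, 5′ to 3′ and both on the plus strand, with the motif matches in capitals: Hal at chr10:93488518-93488767, lower at both times, and Hgd at chr16:37579903-37580152, called at 20 h only. The Hgd start used by the promoter table lies inside the annotated gene, at 37579742 to 37632026.
Hal: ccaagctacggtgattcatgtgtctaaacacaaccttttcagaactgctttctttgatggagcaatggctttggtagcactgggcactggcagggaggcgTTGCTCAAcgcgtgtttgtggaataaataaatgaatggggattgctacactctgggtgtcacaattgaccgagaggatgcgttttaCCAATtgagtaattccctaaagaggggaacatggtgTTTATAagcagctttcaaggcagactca
Hgd: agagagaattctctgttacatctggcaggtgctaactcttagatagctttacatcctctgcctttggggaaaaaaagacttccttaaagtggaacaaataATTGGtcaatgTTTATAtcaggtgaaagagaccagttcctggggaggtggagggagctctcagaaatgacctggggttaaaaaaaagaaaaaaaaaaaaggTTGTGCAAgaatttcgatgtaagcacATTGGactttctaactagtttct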

How the data were processed

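Liver RNA of 32 mice was hybridised, 1 array per mouse, to Agilent 4x44K arrays in 1 colour, per the file headers. The authors deposited scanner output, an intensity for each spot; values here start from its processed signal column. The authors' Feature Extraction 10.7.1.1 had corrected it for background, per the file headers. A second table deposited by the authors, log2 values for 23916 probes with column medians of 8.80 to 8.91, served only as an alternative; no source used here gives its normalisation.

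Control and outlier spots (84 to 232 per array) were left out, which left 43379 spots of 41174 probes. Each array's own 75th percentile was subtracted on the log2 scale. Filtering required 4 or more arrays with the probe well above background, which 28345 probes met, and each gene name was represented by its brightest probe (19204 genes, 360 missing values); all 34 measured members passed. Group means were fitted over 32 arrays with limma 3.58.1 in R 4.3.3 (lmFit, eBayes); 11 comparisons were tested two-sided, with Benjamini-Hochberg adjustment over all genes and a threshold of 0.05. The fit was checked on simulated data.

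The members and the other lists were chosen with earlier results of these data known. Every measured member is named; from the other lists, up to 3 called genes with the largest change in each direction at 6 h and 20 h in wild type. Some genes that this rule names are not reported here. Alternatives were other normalisations and filters, probe averaging, slide, scan date and replicate number as blocks, and each array left out; 2 more, leaving out 2 or 3 knockout arrays, were chosen after seeing the data. Same-numbered mice did not deviate together throughout (r from -0.69 to 0.34, every r over 0.1 in 0 of 15 group pairs), so the main fit did not pair them. A low r for 1 number is enough to fail this rule, so it cannot exclude pairing.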

Additional observations from a re-analysis of the deposited data

Results flagged for a closer look

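Single arrays lay far from the rest of their group in 17 of 204 gene and group combinations tested; chance alone gives about 1 in 20, or 10.2. Of these, 4 were in knockout 20 h replicate 4, whose profile resembled saline: Got1 at 5.51 and Tat at 6.24 were low, and Cbs at 4.42 and Agxt at 6.91 were high. Another 3 were in the knockout arrays that correlated with each other's group, Tat at 6.60 in knockout 6 h replicate 1, and Cbs at 3.34 and Hal at 4.14 in knockout saline replicate 1. Wild-type 6 h replicate 4 was low for Cps1 (7.02) and Tdo2 (5.66) and high for Haao (2.62). Gpt2 reached 6.67 in wild-type 6 h replicate 2. In wild-type 20 h replicate 4, Gpt lay at 4.62 and Sds at 5.92, both high. On saline, Gnmt was low (7.45) and Kmo high (3.34) in wild-type replicate 3, Asl was high (6.70) in wild-type replicate 6, and Oat was high (6.57) in knockout replicate 3.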

How the results depend on the processing

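Over 13 alternatives, the number of the 34 genes called ran from 4 to 10 at 6 h in wild type (6 in the report), 24 to 27 at 20 h in wild type (26), 18 to 25 at 20 h in knockouts (24), 20 to 25 for 20 h against 6 h in wild type (25) and 0 to 23 in knockouts (18). The 10 at 6 h and the 0 in knockouts came from fitting only the groups compared; the cause was not tested. The 6 h count in knockouts, 0, became 1 with scan date as a block, 6 without the 2 arrays that correlated with each other's group, 7 without all 3 arrays, and 0 to 2 when single arrays were left out, with 2 without knockout saline replicate 1 and 2 without knockout 6 h replicate 1. Leaving out 1 array gave 5 to 7 and 23 to 27 calls in wild type at 6 h and 20 h. The genotype difference at 6 h became 1 call, Nags, under quantile normalisation, median centring, normexp with quantile normalisation, the deposited table, the mean over probes, scan date as a block, and trended robust eBayes; the causes were not tested. With the replicate block the counts were 6, 25, 0 and 24 for LPS against saline, and no count moved by over 1.5 times; the call of Arg1 in wild type at 20 h was lost. The mean over probes turned Agxt2l1 at 6 h in wild type to -2.73 (adjusted p = 0.00978), because a dim second probe enters it. Quantile normalisation moved the median of all genes at 6 h in wild type to -0.16 and that of the 34 genes to -0.38. Of 18020 values recomputed for members, counts of genes called left out, 17704 kept their direction and side of the threshold. Another 215 became weaker, 100 stronger and 1, Agxt2l1 above, reversed. No spot was flagged as saturated.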
